A study of Mus musculus with 96 samples.

Results

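The cells described here are untreated C10 cells at the 2 ends of a mitotic transcript score: the 9 score-high and the 9 score-low cells, 18 of the 96 libraries of the series. C10 is an established mouse lung line whose labels call it alveolar type II epithelial. Every library was made from the RNA of 1 sorted cell, 48 from untreated cells (control) and 48 from cells given RO-3306, a compound known as an inhibitor of the kinase CDK1, at a labelled dose of 10 nM for 36 h. All cells were grown in RPMI medium with fetal bovine serum. The labels name no culture, passage or animal for either group, so each treatment is 1 sample. Cells are not replicates, and differences between cells are given here as descriptions with no p-value or standard error.

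A library was kept when its counts summed to 50000 or more and 1000 or more genes had a count, which 29 of the 48 control libraries did. The cells were chosen by the rank of a score, the summed CPM (a gene's count scaled to the cell's total) of Ccnb1, Ccnb2, Cdc20, Plk1, Aurka, Cenpf, Top2a, Tpx2, Hmmr and Ube2c. The 9 highest and the 9 lowest were compared and 11 cells lie between them. Because the score chose the cells, the values of its 10 genes are no result, and those genes were left out of every comparison.

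A cell that approaches mitosis builds up cyclin B and its kinase CDK1, spindle motors, and the kinases PLK1 and Aurora A. It then degrades many of these proteins through the anaphase-promoting complex (APC/C), for which CDC20 is an activator and UBE2C a ubiquitin-conjugating enzyme. The transcripts accumulate in G2 and fall after division, so in cycling cultures they mark cells in or near G2 and mitosis. Transcripts of DNA replication, such as those of the MCM helicase, Pcna and the replication forks, peak earlier in the cycle.

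Many promoters of this program hold CCAAT boxes, which the factor NF-Y binds, and a cell cycle genes homology region (CHR), a site for the MuvB complexes. The 250 bases before the start site are printed for the 4 score genes that held both kinds of motif, to show how the boxes are spaced. Sequences come from RefSeq, build GRCm38.p6, and run 5′ to 3′ in the direction of the gene. Capitals mark the CCAAT box on either strand. They also mark the CHR core on either strand, searched as TTTGAA or in its other form as TTCGAA. Cyclin B2 gene Ccnb2, chr9:70421555-70421804, minus strand, had 3 CCAAT and 1 CHR core match. Cdc20, chr4:118437344-118437593, minus strand, had 2 and 1. Top2a, the gene of DNA topoisomerase II alpha, chr11:99024190-99024439, minus strand, had 6 and 4. Ube2c, chr2:164769679-164769928, plus strand, had 6 and 1, with a pair of its CCAAT matches overlapping on opposite strands.
Ccnb2: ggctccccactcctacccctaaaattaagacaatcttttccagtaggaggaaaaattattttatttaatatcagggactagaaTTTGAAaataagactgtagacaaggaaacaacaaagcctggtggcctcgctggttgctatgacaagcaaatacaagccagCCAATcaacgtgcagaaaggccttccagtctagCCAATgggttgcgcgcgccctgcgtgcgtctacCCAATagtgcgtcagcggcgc
Cdc20: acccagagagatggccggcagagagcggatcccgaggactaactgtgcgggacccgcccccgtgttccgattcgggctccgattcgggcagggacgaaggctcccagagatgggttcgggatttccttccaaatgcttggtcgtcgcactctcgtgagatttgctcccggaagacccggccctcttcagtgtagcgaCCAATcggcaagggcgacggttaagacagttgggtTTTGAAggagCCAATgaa
Top2a: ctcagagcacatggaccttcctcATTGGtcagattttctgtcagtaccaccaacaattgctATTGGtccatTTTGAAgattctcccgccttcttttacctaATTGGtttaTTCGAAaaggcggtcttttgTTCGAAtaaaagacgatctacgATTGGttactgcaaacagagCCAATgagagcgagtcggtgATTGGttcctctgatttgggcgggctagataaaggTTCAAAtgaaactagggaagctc
Ube2c: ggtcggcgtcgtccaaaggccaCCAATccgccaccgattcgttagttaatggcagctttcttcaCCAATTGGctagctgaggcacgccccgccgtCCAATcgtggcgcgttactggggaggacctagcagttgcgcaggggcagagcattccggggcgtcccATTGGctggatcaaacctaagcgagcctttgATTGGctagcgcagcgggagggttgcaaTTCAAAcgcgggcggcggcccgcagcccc

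The promoter table held 9 of the 10 score genes, and CCAAT was present in all 9. It was present in 31 of 42 other G2/M genes (73.8%), in 37% of the 6049 tested genes with a promoter and in 34.5% of all 27025 promoters of the table. At least 2 CCAAT matches were found in 8 of the 9 score genes, in 54.8% of the other G2/M genes and in 14.2% of tested genes. A TTTGAA or TTCGAA match was found in 4 of the 9 score genes, in 42.9% of the other G2/M genes, in 12.9% of tested genes and in 17.4% of all promoters. Genes called higher in score-high cells by the rule given further on held CCAAT in 42% and genes called lower in 38.4%. The CCAAT share was thus high in the G2/M lists and near that of all tested genes among the called genes. A match is a description of letters in this window and not a measured binding site.

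The score spanned from 1993 to 5510 CPM in score-high cells, with a median of 3214. In score-low cells it ran from 0 to 795 CPM, with a median of 524. The last cell inside the high group, C1, had 1993 CPM and the first outside it, C12, had 1657 CPM. At the other boundary, C3 at 795 CPM was inside the low group and D10 at 884 CPM was outside it. The groups are thus 2 ranges of 1 ranking and not cell types.

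Score-high cells had counts of 6 to 10 of the score genes (median 9), and score-low cells of 0 to 7 (median 2). Aurka, the Aurora A kinase, ranged from 82.2 to 505 CPM in score-high cells, and its highest value in the score-low cells was 0.363 CPM. Tpx2, its activator on the spindle, ranged from 10.2 to 879 CPM in score-high cells and reached 12.6 CPM in 1 score-low cell. Ube2c had a mean of 1152 CPM in score-high and 83.2 CPM in score-low cells, but C1 had no Ube2c count. Ccnb2 hardly separated the groups, with means of 296 and 207 CPM. Cenpf, a kinetochore protein gene, went the other way, with means of 39.3 and 88.5 CPM, of which C3 alone had 795 CPM. The low group was thus mixed: C8, A12 and A7 owed their score almost wholly to Ccnb2, C3 to Cenpf, and A9 had no count of any score gene among 5267 detected genes.

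Each library's title holds a letter, A, B, C or D, with no stated meaning, and the letters were unequally divided between the groups. Letter B holds 6 of the 9 score-high cells and 1 score-low cell. Letter A holds 1 score-high and 5 score-low cells, letter C holds 1 and 3, and letter D holds 1 and 0. Differences between the groups and differences between letters can therefore be told apart only in part. Ratios within letters A, B and C are printed for some of the lists and genes. Total counts had a median of 2444990 in score-high cells (961143 to 6457210) and 1719910 in score-low cells (176892 to 5105710). The mitochondrial share of counts had a median of 3.54% in score-high and 3.34% in score-low cells. The 10 most abundant genes took a median of 4.73% and 5.42% of counts.

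The labelled cell type was checked against markers. Sftpa1, Sftpb, Sftpc, Sftpd, Slc34a2 and Napsa, the surfactant and other defining type II genes, had no count in any of the 18 cells. The summed type II list, 10 genes, ranged from 0 to 109 CPM in score-high and from 0 to 87.5 CPM in score-low cells. Of that list Abca3, a lipid transporter gene, was called higher in score-high cells, with counts in 4 of them (mean 23.3 CPM) and in no score-low cell. The 10 epithelial genes had a median of 0 CPM in both groups, and the highest sum was 396 CPM in a score-low cell, all from Krt19. The 12 mesenchymal genes had counts in every cell, and their sum ranged from 4610 to 12556 CPM (median 5069) in score-high and from 3351 to 11046 CPM (median 7702) in score-low cells. Vim, Col1a1, Fn1 and S100a4 had counts in all 18 cells, while Thy1 had none and Pdgfra, Pdgfrb, Twist1 and Col1a2 each had counts in at most 4. In C1 Vim alone gave 8580 of 12556 CPM. The defining type II genes are thus absent from both groups. The alveolar type I sum was 649 to 3076 CPM (median 1142) in score-high cells and 0 to 1970 CPM (median 333) in score-low cells. Most of it was Cav1, a gene also made by other cell types, and Ager, Aqp5 and Clic5 had no count. The 2 type I genes tested had a median ratio of 0.84, with 1.43 within letter A, −0.77 within B and 2.22 within C, and no call. Macrophage, endothelial and lymphocyte markers had medians of 0 CPM in both groups, with highest sums of 244, 79.1 and 0.182 CPM. Their part in the differences was not tested.

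At full depth score-high cells had a median of 5160 genes with a count (3607 to 10275) and score-low cells 4130 (1812 to 6614). When 534000 reads were drawn at random from each cell, the 9 score-high cells had a median of 4493 genes (3309 to 8942). The 8 score-low cells deep enough had 3660 (1822 to 5364), and the 9 middle cells deep enough had 4557 (2542 to 6966). Most of the 2 groups overlapped: only B2, A1 and B4 of the score-high cells lay above every score-low cell. Cell B4 had both the most counts and the most genes of the 18. The part of depth and gene number in the differences below was not tested. In RO-3306 cells the order was the other way, with medians of 5421 genes in 11 score-high and 6105.5 in 10 score-low cells at that depth.

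**Figure D1:**
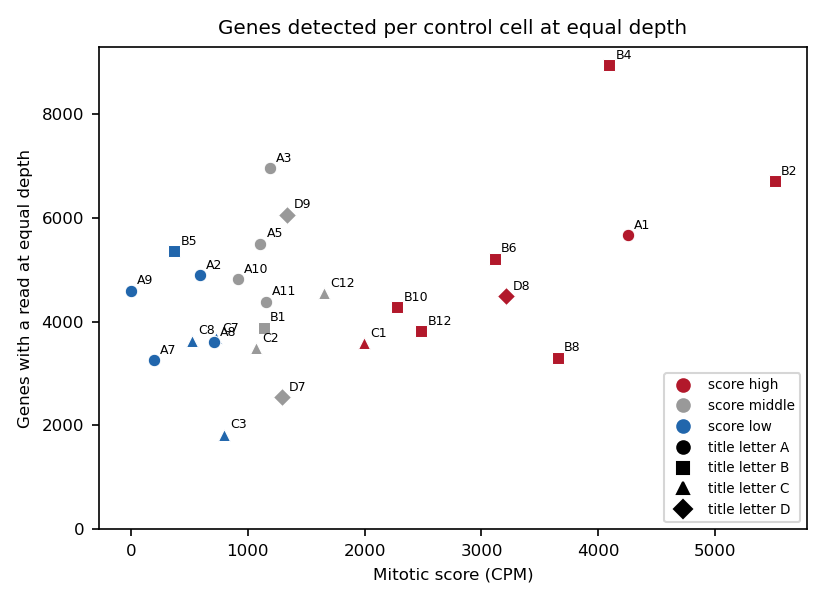
Each point is 1 control cell with at least 534000 reads; the x axis is its mitotic score in CPM and the y axis the number of genes with a read after thinning to that depth, with colour for score group and shape for title letter. The groups overlap between 3309 and 5364 genes, and B4 stands highest at 8942.

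For each gene outside the score, the mean CPM of the 9 score-high cells was set over that of the 9 score-low cells as a log2 ratio, with 1 CPM added to both means. The call rule was applied to genes whose 2 group means averaged at least 10 CPM. A gene was called when the ratio was at least 2-fold and stayed so with any 1 of the 18 cells left out. The added 1 CPM understates the ratio of low genes. Of 7480 genes, 1233 were called higher in score-high cells (16.5%) and 500 were called lower (6.68%). The median ratio of all tested genes was 0.06 on the log2 scale (quartiles −0.84 and 1.20). Because the score ranked these same cells, these shares serve as the background for each list and nothing is read from their size. The filter itself favours differences: 1171 of the tested genes had a mean under 10 CPM in score-low cells, so they passed through the score-high cells alone, and 807 passed through the score-low cells alone. With the filter set on the 11 middle cells, which the comparison does not use, 7126 genes remained, of which 16% were called higher and 5.11% lower. With DESeq2 size factors in place of total counts, 963 genes were called higher and 688 lower, so that 58.3% of calls were higher in place of 71.1%. The median ratio of the genes tested was −0.19 with those factors and 0.24 with TMM factors. These factors weight cells unequally within a group.

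The same rule applied to RO-3306 cells gave 12 score-high and 12 score-low cells out of 37 kept, with 3 high and 3 low cells in letter A, 2 and 4 in B, 6 and 3 in C, and 1 and 2 in D. Their scores were 3336 to 6585 CPM and 5.82 to 1866 CPM. Of 7335 genes, 482 were called higher (6.57%) and 472 lower (6.43%). These cells share no library with the control cells. Among the score-low RO-3306 cells, B3 had 56% of its counts from mitochondrially encoded genes and A11 had 18.1%. Without both cells, 416 genes were called higher and 499 lower. The medians were then 0.92 for the other G2/M genes and 1.41 for kinesins and spindle genes, with 12 of 43 and 11 of 23 called higher. Their values are given beside the control values below, with no test of the difference between treatments.

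Transcripts of the mitotic apparatus outside the score were higher in score-high cells as a group. The list of other G2/M genes, 48 genes chosen with earlier results of these data known, summed to 7060 to 14444 CPM (median 11258) in score-high cells and to 761 to 7907 CPM (median 4688) in score-low cells. The groups overlapped by 1 cell: C7, a score-low cell, lay above C1, the lowest score-high cell. The 11 middle cells lay between, at a median of 6269 CPM (2509 to 10672).

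Of the 48 genes, 45 passed the filter, 20 of them through the score-high cells alone. Their median log2 ratio was 2.51, with 33 called higher and none lower, beside 16.5% and 6.68% of all genes. All 48 without a filter had a median of 2.37. The 39 that passed on the middle cells had a median of 2.10, with 27 called higher. For genes with no count in 1 group the ratio depends on the added 1 CPM. With the 10 such genes of this list set to 3 counts over the group, its median was also 2.51. Within letter A the median was 1.95, within B 5.34 and within C 0.00, where the lone score-high cell is C1. In RO-3306 cells the list had a median of 0.94, with 12 of 45 called higher and none lower, beside 6.57% and 6.43% of all genes.

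**Figure D2:**
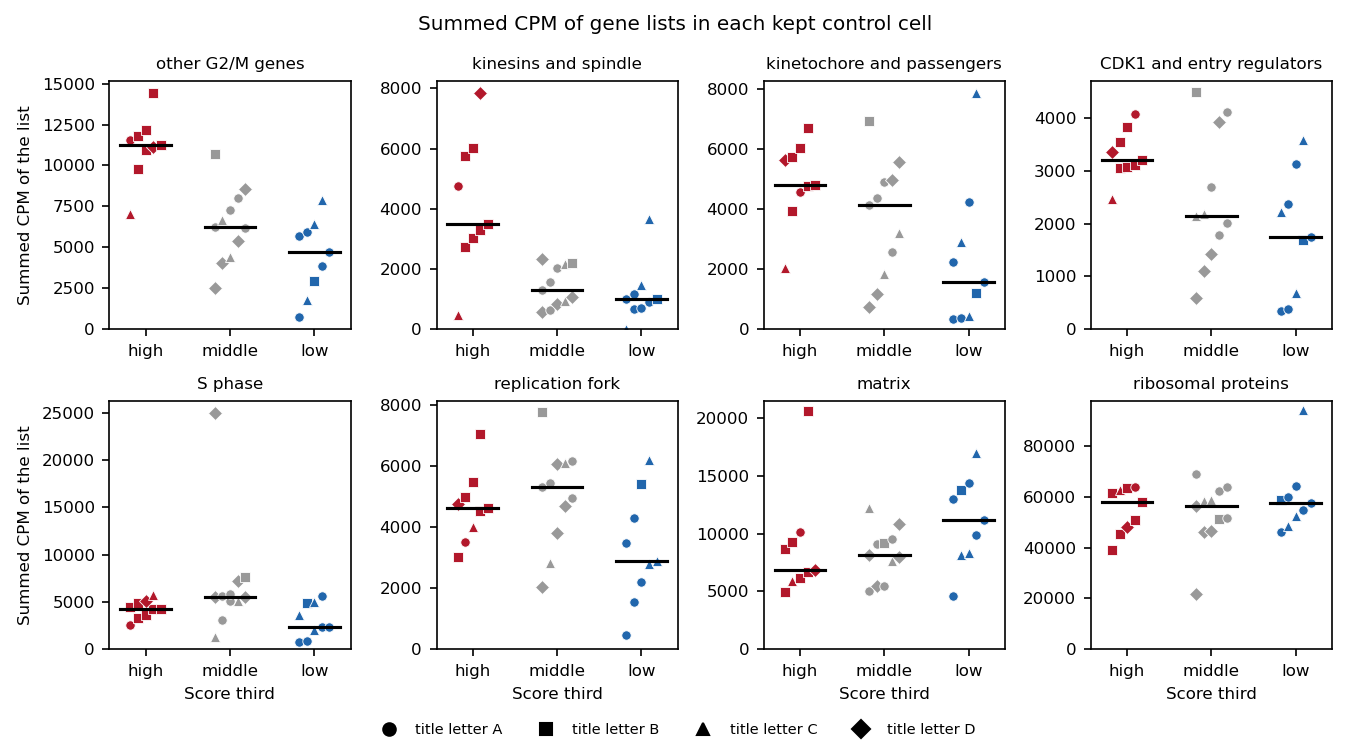
Each panel sums the CPM of a gene list (y axis, CPM, from 0) in each kept control cell, by score group (x axis), with 1 point per cell, a bar at the median and shapes for title letters. Other G2/M genes have medians of 11258, 6269 and 4688 CPM from score-high to score-low cells, while ribosomal proteins have 58008, 56496 and 57520 CPM.

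Pimreg separated the groups completely, and it was the single gene of the 7480 with a count in all 9 score-high cells and in no score-low cell. No gene had the opposite pattern. The gene (chr11:71933264-71938197, plus strand, in GRCm39, as are the gene positions that follow) codes for a protein that interacts with PICALM and is most abundant in dividing cells. Its CPM was 29.9, 63.5, 88.4, 121, 153, 260, 361, 502 and 638 in the 9 score-high cells, from lowest to highest, and 0 in every score-low cell. Summed counts were 7005 against 0, which is 1595-fold against a floor of 3 counts over the score-low cells. The floor covers counting error only and, with PCR copies among the reads, does not bound the true ratio. At equal depth Pimreg had a read in 9 of 9 score-high cells and in 0 of 8 score-low cells. It was higher within letters A, B and C alike, which its counts in every score-high and no score-low cell made certain. In RO-3306 cells the same contrast was only 0.63 on the log2 scale and was not called, with means of 127 and 81.5 CPM.

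Cytokinesis and spindle genes had the largest median ratio of the lists outside the score. The 33 genes of kinesins and spindle proteins, the list kinesins and spindle, summed to a median of 3500 CPM in score-high cells (462 to 7841) and 999 CPM in score-low cells (22.7 to 3661). Here 8 score-high cells lay at 2725 CPM or above and 8 score-low cells at 1482 CPM or below. The exceptions were C1, at 462 CPM, and C7, at 3661 CPM. Of 27 genes that passed the filter, 22 were called higher and none lower, with a median of 3.75. Setting its 6 genes with no count in 1 group to 3 counts over that group gave 3.75 as well. Of these 27, 16 passed through the score-high cells alone. On the middle-cell filter 15 of 20 were called higher, with a median of 3.29. Medians within letters were 2.53 in A, 5.96 in B and −0.27 in C. In RO-3306 cells 10 of 24 were called higher and none lower, with a median of 1.27.

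Kif23, the motor of the centralspindlin complex, had a median of 110 CPM in score-high cells (0 to 457), with a count in 7 of 9. A single score-low cell had it, at 0.363 CPM. The ratio was 7.06 on the log2 scale and 3.36 in RO-3306 cells, where it was not called. Ckap2l, which codes for a spindle-associated protein, had a median of 88.8 CPM in score-high cells (0 to 975). It had no count in score-low cells, which is 1199-fold by summed counts against the floor of 3 counts, for counting error only. Kif2c, the microtubule-depolymerising kinesin of the centromere, was also listed at 0 in all score-low cells, with counts in 5 score-high cells (highest 235 CPM). It was called higher in RO-3306 cells too, at 1.98. Kif15, a motor that helps keep the spindle bipolar, had a count in 4 of 9 score-high cells and in no score-low cell, but its RO-3306 ratio was −1.86. These 4 genes were thus at or near 0 in every score-low cell, and 4 to 7 score-high cells held them.

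Kinetochore and chromosomal passenger genes had a median ratio of 1.17, with 12 of 28 called higher and none lower. On the middle-cell filter it was 11 of 27. Medians within letters were 1.72 in A, 4.31 in B and 0.00 in C. The sums overlapped, with 4 score-low cells above the lowest score-high cell. Oip5, which takes part in placing the centromeric histone, had a median of 52.9 CPM in score-high cells (0 to 485) and no count in score-low cells. In RO-3306 cells it was called higher at 1.55. Cenpe, the kinetochore motor, had a count in 4 of 9 score-high and in no score-low cell, with ratios of 5.51 in control and 5.48 in RO-3306 cells, called in both. Incenp, the scaffold of the passenger complex, was called in opposite directions, at 5.60 in these cells and −2.02 in RO-3306 cells. In RO-3306 cells the list had 8 of 32 genes called higher and 1 lower, with a median of 0.73.

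Regulators of CDK1 and mitotic entry had a median ratio of 0.93, with 6 of 16 called higher and none lower. Their RO-3306 median was 1.16, also with 6 of 16 called higher and none lower. Within letters it was 1.23 in A, 1.63 in B and −1.37 in C. Cdk1 itself (chr10:69170976-69188742, minus strand) had CPM of 6.04, 280.1, 362, 838, 844, 1050, 1224, 1352 and 1764 in score-high cells, from lowest to highest. In score-low cells A9 had 791 CPM and C7 had 977 CPM, B5 had 114 CPM, and the other 6 had at most 1.74 CPM. The means of 858 and 209 CPM give a ratio of 2.03, with 3 score-low cells above the lowest score-high cell. Within letter C it was −5.54. Summed counts gave 822 CPM (Poisson 95% interval 811 to 833) and 243 CPM (236 to 251). These intervals cover counting error only, and reads without molecular identifiers include PCR copies.

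Ccna2, the cyclin of S phase and G2, had a median of 365 CPM in score-high cells (0 to 569) and was found in 8 of 9. Of the score-low cells, A9 had 57.9 CPM and A8 had 177 CPM, and the other 7 had none. The ratio was 3.56 (5.27 without A8). In RO-3306 cells it was 1.37, with no call. Cyclin F, Ccnf, was found in 5 score-high cells (median 3.41 CPM, highest 535) and in no score-low cell. The phosphatase Cdc25b, which activates CDK1, was called higher in both sets, at 2.85 and 5.15. Cdkn3, a phosphatase that acts on CDK proteins, was called in both too, at 2.23 and 2.05. Of these regulators Cdk1, Ccna2, Cdc25b and Cdkn3 also had counts in 1 to 5 score-low cells, and Ccnf in none.

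Spindle checkpoint and APC/C genes had 10 of 30 called higher and none lower, with a median of 0.81, and 7 of the 30 passed the filter through score-high cells alone. On the middle-cell filter 5 of 25 were called higher, with a median of 0.49, beside 16% of all genes. Their sum did not part the groups: 7 of 9 score-low cells lay above the lowest score-high cell. Knl1, the scaffold of the outer kinetochore, was called at 5.12 and Zwilch, of the RZZ complex, at 4.67. Each had counts in 5 score-high cells and less than 1 CPM in every score-low cell. Neither these 2 nor Cdc23 and Espl1 reached a mean of 10 CPM in the middle cells. Cdc23, an APC/C subunit, was called at 6.15 but its sign turned without letter B, at −0.10. Espl1, separase, did the same, at 4.16 and −0.53. In RO-3306 cells 3 of 28 were called higher and 1 lower, with a median of 0.20. Condensin and chromosome structure genes had 11 of 29 called higher and none lower, with a median of 0.68, and 2 of 24 higher and 1 lower in RO-3306 cells. In control cells that median was 0.11 within letter A, 1.34 within B, 0.00 within C and 0.25 without letter B. Smc1a, a cohesin subunit, had a median of 87.1 CPM in score-high cells (highest 628), where all 9 had a count. Score-low cells reached 43 CPM, with counts in 7 of 9. Its ratio was 4.17, and 2.59 without a call in RO-3306 cells. Fractional counts were held by 22 of the 29 kept cells for Smc1a, so its level is uncertain. Ncapd2, a condensin subunit, had a mean of 51.6 CPM in score-high cells and no count in score-low cells, while its RO-3306 ratio was −2.63.

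Tubulin genes had 4 of 9 called higher and none lower, with a median of 0.57, and 3 of 10 higher and none lower in RO-3306 cells, with a median of 1.20. In control cells the median over all 14 genes of the list was 0.00. Within letters the tested genes had medians of 0.91 in A, 0.03 in B and −0.03 in C. Tuba1c, an alpha tubulin, ranged from 373 to 991 CPM in score-high cells (median 606) and from 82.5 to 421 CPM in score-low cells (median 288). Only 1 score-low cell lay above the lowest score-high cell, and the ratio of 1.39 was 1.57 within A, 1.41 within B and 2.18 within C. Tubb4b, a beta tubulin, had medians of 683 and 124 CPM and a ratio of 1.84, and was called higher in RO-3306 cells at 1.20. Tubb5 had medians of 1627 and 761 CPM and a ratio of 1.13, with −0.27 within letter C. Tubg1, the gamma tubulin of microtubule nucleation, was found in all 9 score-high cells (47.1 to 301 CPM) and in 3 of 9 score-low cells, of which B5 had 215 CPM. Tubulin genes share sequence: Tuba1c held fractional counts, from reads placed at several sites, in all 29 kept cells. Its level is uncertain for that reason.

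Genes of DNA replication were described by 3 lists, with no test of a difference from the mitotic lists. The S phase list, 43 genes, had 34 that passed the filter, a median ratio of 0.49, 7 called higher and 1 lower, shares of 20.6% and 2.94% beside 16.5% and 6.68% of all genes. Its sum was highest in the middle cells, at a median of 5548 CPM, beside 4242 CPM in score-high and 2373 CPM in score-low cells. The highest middle value, 24984 CPM, came from D10, which had the fewest counts of the kept cells and 21.8% of them in 10 genes. Within letters the median was −0.29 in A, 0.43 in B and 0.00 in C. In RO-3306 cells 3 of 36 were called higher and 3 lower, with a median of 0.04.

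None of the 6 Mcm2 to Mcm7 helicase genes was called in either direction. Mcm6, found in 9 score-high and 8 score-low cells, had medians of 215 and 174 CPM and a ratio of 0.21. Pcna, the sliding clamp, had medians of 172 and 223 CPM and a ratio of 0.11. Of the replication fork genes, 11 of 31 were called higher and none lower, with a median of 0.83. Over all compared cells these values were near those of the checkpoint and CDK1 lists. Within letters A, B and C the fork median was 0.12, 0.24 and 0.00. It was 1.23, 1.63 and −1.37 for the CDK1 list and 0.76, 1.99 and −0.25 for the checkpoint list. On the middle-cell filter 12 of 32 fork genes were called higher, with a median of 0.84. There the CDK1 list had 8 of 18 and 1.78, and the checkpoint list 5 of 25 and 0.49. In RO-3306 cells 1 of 30 fork genes was called higher and 1 lower. Rpa1, a subunit of the single-stranded DNA binding complex, had a median of 275 CPM in score-high cells (0 to 393). Its median was 0 in score-low cells (highest 32.3 CPM), and the RO-3306 ratio was 0.01. Origin licensing genes had 5 of 23 called higher and none lower. Among them Dbf4, the activator of the kinase CDC7, had a median of 220 CPM in score-high cells (0 to 649) and was found in 1 score-low cell, at 173 CPM.

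Mki67, a proliferation marker, gave no call. It was found in 7 of 9 score-high cells (median 95.2 CPM, highest 928) and in 1 score-low cell, C3, at 1727 CPM. That cell also had the Cenpf counts, and without it the ratio moved from −0.01 to 7.58. The list of G1 cyclins and RB-E2F genes had 2 of 15 called higher and 1 lower, with a median of 0.42. Without letter B that median was −0.32. Of the G1 cyclins, Ccnd1 had a ratio of 0.92 with no call, and Ccne1 −0.86 with no call. Ccne2 had no count in any score-high cell and 15.7 CPM at most in score-low cells. Cdk6, the partner of D cyclins, was found in all 18 cells, with medians of 189 and 63.7 CPM and a ratio of 1.68. In RO-3306 cells its ratio was −0.62, with no call.

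Among CDK inhibitors, Cdkn2c (p18, an inhibitor of CDK4 and CDK6, chr4:109518073-109523953, minus strand) separated the 2 groups, but by a narrow gap. All 9 score-high cells had between 109 and 308 CPM, with a median of 173. Score-low cells had 0 to 106 CPM, and 4 of 9 had no count. The middle cells did not lie between the groups. B1, D7 and C12 had 1292, 420 and 386 CPM, above every score-high cell, while D9, C2, A10 and D10 had no count. The ratio was 2.59, and 6.26, 1.17 and 2.00 within letters A, B and C. In RO-3306 cells it was −1.28, with no call. Cdkn2d (p19) was called at 2.86, with counts in 6 score-high cells and 1 score-low cell. Cdkn1a (p21) was not called: its medians were 21.9 and 1.65 CPM and its ratio of 1.81 was 0.73 with 1 cell left out. Ccng2, cyclin G2, was called in opposite directions, at 6.05 with no count in score-low cells and at −3.91 in RO-3306 cells. The list of CDK inhibitors and p53 targets had 3 of 17 called higher and none lower. Its median was 0.78 after the filter and 0.08 over all its genes.

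**Figure D3:**
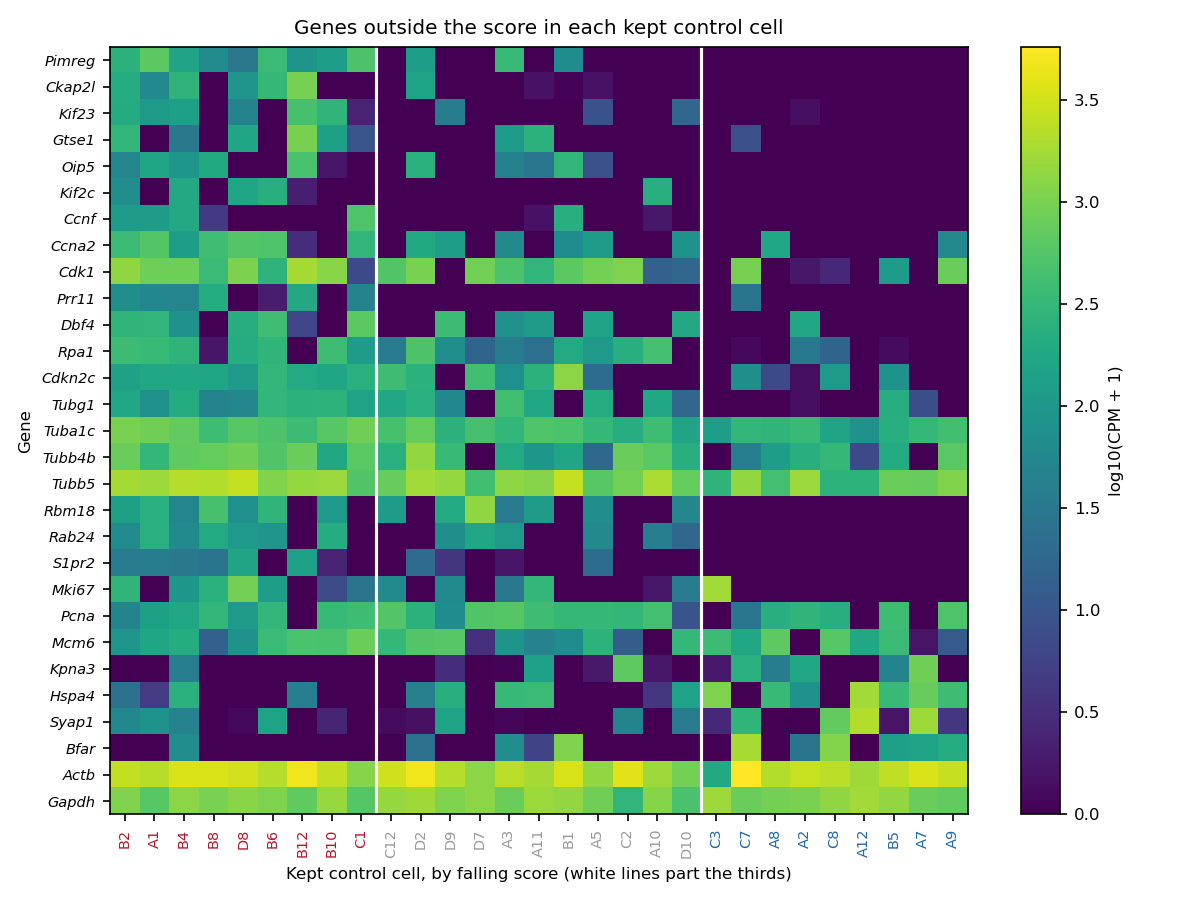
Colour gives log10(CPM + 1) of 29 genes outside the score (rows) in the 29 kept control cells (columns, by falling score), with white lines between the score groups. Pimreg is filled in all 9 score-high cells and dark in all 9 score-low cells, Tuba1c is filled throughout, and Kpna3, Hspa4 and Bfar are filled mainly on the right.

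The 8 genes whose CPM most followed the score over the 29 kept cells, by Spearman's rho, were Pimreg (0.77), S1pr2 (0.73), Tuba1c (0.71), Rbm18 (0.68), Rab24 (0.65), Ccna2 (0.64), Bbs5 (0.64) and Prr11 (0.63). These are descriptions over cells for which no separate cultures are named and which differ in depth, and no p-value is given. The score behind these rho values also chose the cells, so they are no separate result. Pimreg, S1pr2, Rbm18, Rab24 and Bbs5 had no count in score-low cells and passed the filter through score-high cells alone, as did Prr11. In the middle cells Prr11 had no count and S1pr2 reached 20.3 CPM. S1pr2, a sphingosine-1-phosphate receptor, and Rbm18, an RNA-binding protein gene, had counts in 7 score-high cells each and in no score-low cell. So did Rab24, a small GTPase. In RO-3306 cells their ratios were −1.61, 0.22 and 1.15, none of them called. Prr11 was found in 7 score-high cells (median 51.0 CPM) and in 1 score-low cell at 27.6 CPM, with 2.29 and no call in RO-3306 cells.

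Several of the largest ratios belonged to genes outside every cell cycle list. Akr1c13, an aldo-keto reductase gene, had a median of 116 CPM in score-high cells (highest 544, in 7 of 9) and at most 2.74 CPM in score-low cells, a ratio of 7.18. Ro60, which codes for an RNA-binding autoantigen, had a median of 82.2 CPM over the 9 score-high cells, 6 of which had a count, and at most 2.91 CPM in score-low cells. Trmt10c, a subunit of mitochondrial RNase P, had counts in 6 score-high cells and in no score-low cell. That is 439-fold by summed counts against the floor of 3 counts, for counting error only. In RO-3306 cells these 3 genes had ratios of −0.06, 0.20 and 0.55, none called. Rabepk, a Rab9 effector gene, was called higher here at 7.08 and lower in RO-3306 cells at −1.35. Rnf220, a ubiquitin ligase gene, had counts in 6 score-high cells, with a median of 1.30 CPM and a highest value of 1908 CPM, and a ratio of 7.68 (0.82 without a call in RO-3306 cells). Large ratios in control cells thus came without a matching call in RO-3306 cells for all 5 of these genes.

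Fewer genes were called lower in score-high cells. A gene called lower had counts in a median of 4 score-low and 3 score-high cells, and 11 of the 500 had counts in all 9 score-low cells. Hspa4, an HSP110 family chaperone, had CPM of 0 to 1736 in score-low cells (median 342), where 7 of 9 had a count. Score-high cells had 0 to 246 CPM (median 0). The ratio was −3.88 here and −0.20 in RO-3306 cells. Bfar, an apoptosis regulator, had a median of 138 CPM in score-low cells and a count in 6 of 9, against 1 of 9 score-high cells. Its RO-3306 ratio was 0.76. Kpna3, an importin alpha (chr14:61602635-61677396, minus strand), had counts in 6 score-low cells and 1 score-high cell, and was called lower in both sets, at −4.84 and −1.60. Syap1 was called lower in both as well, at −3.78 and −2.75, and so was Cacul1, at −4.19 and −3.39. Cacul1 turned to 0.32 without letter A and was 0.59 within letter B. Cul3, the scaffold of a ubiquitin ligase, was called lower in control cells at −3.64, and at −1.65 without C3, which had 4151 CPM. It was called higher in RO-3306 cells at 1.46. Over all 1733 called genes, 89.4% moved by more than 1.5-fold when the cell that moves them most was left out. Examples are Dbf4, at 7.76 without A2, Tubg1, at 6.47 without B5, Cenpe, at 4.31 without B4, and Bfar, at −8.61 without B4.

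Extracellular matrix genes summed to a median of 6838 CPM in score-high and 11141 CPM in score-low cells. The ranges overlapped widely (4945 to 20645 and 4589 to 16986 CPM), and the highest sum of all was in B4. Of 24 genes tested, 1 was called higher (4.17%) and 3 lower (12.5%), beside 16.5% and 6.68% of all genes. Of these Ccn2, a matricellular gene, had medians of 0 and 127 CPM and was called lower in both sets, at −1.95 and −4.92. Fn1, fibronectin, had medians of 201 and 695 CPM but a ratio of means of −0.09, with B4 at 3526 CPM. Col1a1 had medians of 601 and 498 CPM, with a ratio of −0.27. Loxl2, a lysyl oxidase, was called lower at −3.35 with counts in 4 cells of each group, and Col5a1, a fibrillar collagen, higher at 3.70.

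Ribosomal protein and oxidative phosphorylation genes lay level between the groups. The 71 ribosomal protein genes tested had a median ratio of −0.03 and the 73 nuclear-coded oxidative phosphorylation genes −0.01, with no gene called in either list. Actb had medians of 2593 and 2501 CPM and a ratio of 0.13. Gapdh had medians of 1078 and 1012 CPM and a ratio of −0.19. The list of 10 housekeeping genes had 1 of 9 tested called higher and none lower, with a median of 0.07. The gene called was Tbp, at 4.83. Proteasome genes had 2 of 31 called higher, ER chaperone genes 2 of 22 and cytosolic chaperones 1 of 21, shares below the 16.5% of all genes. With a minimum of 50 CPM the share of all genes was 10.1%, near the 9.09% of the ER chaperone genes. Hspa4 was the 1 cytosolic chaperone called lower, and none was in the other 2 lists. Calr, an ER chaperone, was 1 of those called, with medians of 672 and 272 CPM and a ratio of 1.43. Splicing factors of the SR and hnRNP families had 3 of 26 called higher and 1 lower, with a median of 0.41. Nucleolar and ribosome biogenesis genes had 3 of 21 called higher and none lower, with 0.25. Glycolysis genes had 1 of 14 called higher (0.16), actin and contractile genes 1 of 26 (−0.11) and lamina genes 1 of 7 (−0.15), with none lower. Cholesterol synthesis genes had 2 of 12 called higher and 1 lower, with a median of −0.96. That median was 0.00 over all genes of the list, −0.38 on the middle-cell filter, 0.05 without letter B, and 0.36, 3.12 and −5.27 within letters A, B and C. Immediate early genes had 2 of 13 called higher and 1 lower, with −0.40. Mitochondrially encoded genes had a median of 0.12 in control and −1.16 in RO-3306 cells, with no call in either. Without RO-3306 cells B3 and A11 the latter was −0.14.

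**Figure D4:**
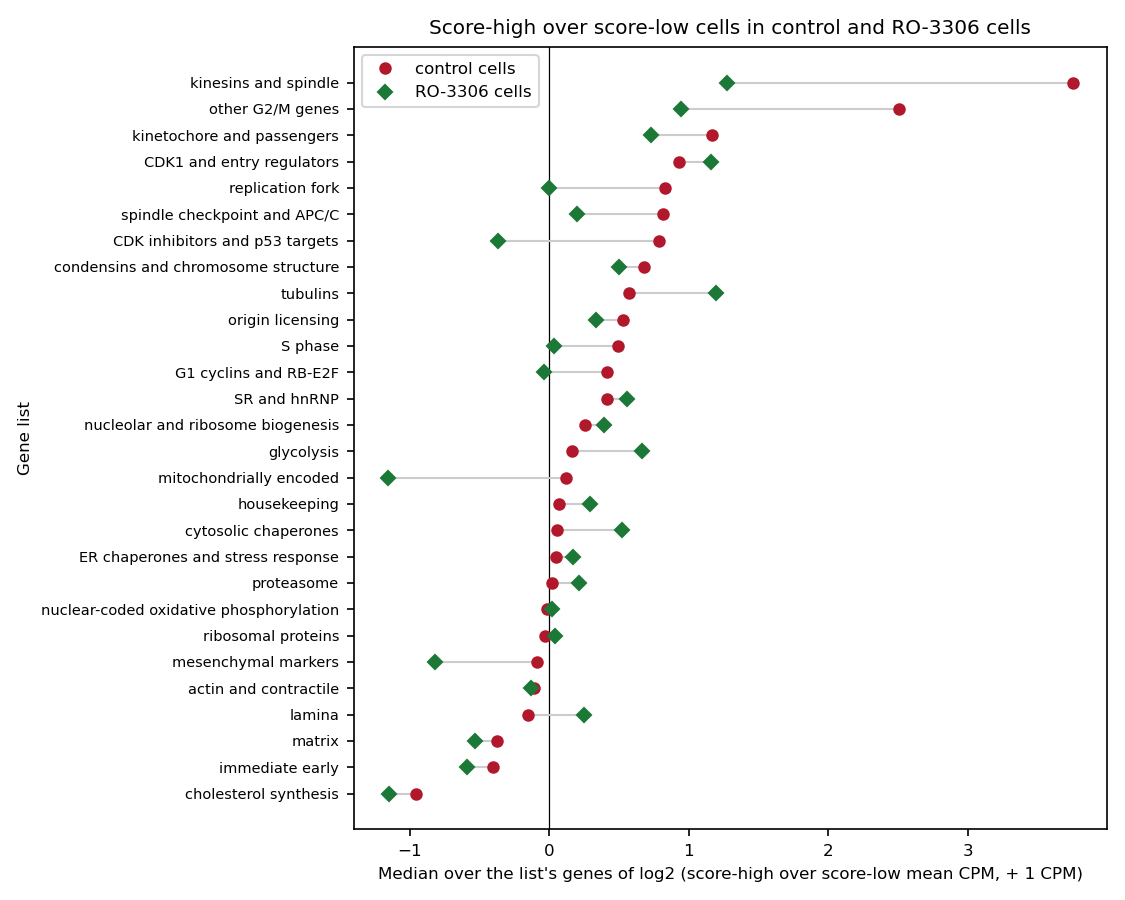
Each row is a gene list and each point the median over its tested genes of the log2 ratio of score-high over score-low cells (x axis), circles for control and diamonds for RO-3306 cells. Kinesin and spindle genes (3.75 and 1.27) and other G2/M genes (2.51 and 0.94) are at the top, and ribosomal protein genes lie at −0.03 and 0.04.

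Over all genes, the calls of the 2 treatments were compared by count. Of the 1233 genes called higher, 963 were tested in RO-3306 cells. There 101 were called higher (10.5%, or 21% of the 482 called higher there) and 63 lower (6.54%). Of the 500 called lower, 381 were tested, and 34 were called lower (8.92%, or 7.20% of the 472) and 27 higher (7.09%). The background shares there were 6.57% and 6.43%. Within control cells, 229 of the 1233 (18.6%) and 165 of the 500 (33%) had the same sign within letters A, B and C. The share among all tested genes was 14.5%. These letters hold most of the cells whose means set the calls, so called genes tend to share a sign by construction. Nothing is therefore read from the difference between these shares.

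Leaving out letter B left 3 score-high and 8 score-low cells, and called 593 genes higher and 1083 lower, the reverse of the main balance. Leaving out letter A called 1996 higher and 298 lower. The median of the other G2/M genes was 2.11 over the same genes without letter B, and that of kinesin and spindle genes 2.95. Leaving out B4 alone gave 1054 higher and 614 lower. A core of 48 genes was called higher in the main comparison and under the 16 alternatives in cells, score, depth, scale, letters and minimum CPM, and 14 were called lower. Of these, 42 and 12 also passed the filter on middle cells, which Kif23 and Ro60 did not. Of the 48, 12 belong to the 6 mitotic lists: Ccna2, Cenpa, Ckap2l, Fbxo5, Gtse1, Kif11, Kif23, Kpna2, Ncaph2, Nusap1, Pimreg and Rad21. Some of these names were chosen after their values were seen. The share of all tested genes in these 6 lists was not computed, so nothing is read from the 12. In RO-3306 cells 5 of the 45 tested were called higher, namely Arl6ip1, Cenpa, Depdc1a, Kpna2 and Nusap1, and 2 were called lower. Of the core genes called lower, 13 were tested there, with 2 called lower and 2 higher. The median RO-3306 ratio was 0.04 for the 48 and −0.16 for the 14. Without RO-3306 cells B3 and A11 the RO-3306 calls of Nusap1 (1.10), Oip5 (1.30), Tubb4b (0.94), Incenp (−1.71), Kpna3 (−1.33) and Cul3 (1.21) no longer held, with the same directions.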

How the data were processed

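The authors aligned single-end reads with STAR and counted them over gene spans with featureCounts 2.0.3, per the file headers and the submitters' processing notes, against the RefSeq annotation of GRCm39. Reads with several sites were split, so the deposited values are treated as estimated counts: 42.4% of nonzero values in kept control cells were fractional (tolerance 1e-06). No strand option is given in the headers, so a gene and an antisense neighbour cannot be told apart. CPM were computed here from the column of each file over 40202 genes (Python 3.11.15, pandas 2.3.3, scipy 1.17.1). Thinning and summed counts used rounded values, so C3 had 1822 genes after thinning and 1812 of at least 1 count before it. Count models were not fitted, since cells of 1 sample are not replicates. No doublet calling was done, each library being 1 sorted cell. Scaling factors came from edgeR 4.0.16 and DESeq2 1.42.0 in R 4.3.3.

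Named genes were the score genes, the 15 largest and 15 smallest ratios among called genes of at least 20 CPM with counts in at least 6 cells of the higher group, up to 4 called genes per list, 20 set genes (such as Cdk1, Mki67 and Mcm2 to Mcm7) and the 8 of highest rho. A selection of these is printed. Members and lists were chosen with earlier results of these data known. The filter on middle cells, the ratios within letters and the RO-3306 comparison without 2 cells were added after seeing the data. The scripts were tested on simulated data.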

Additional observations from a re-analysis of the deposited data

Results flagged for a closer look

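Of 102 sets of values with a count in every cell of a group, 16 held a cell that stood apart, with a gap to its neighbour, as a share of the range, above Dixon's limit for 9 cells. Chance alone flags about 1 in 20 sets of normally distributed values. CPM are skewed and sets share genes, so the rate that holds here was not tested. In score-high cells B4 stood above the others in the matrix sum (20645 CPM, the next 10105 CPM), in Fn1 (3526 CPM), Thbs1 (2505 CPM) and Col1a1 (1483 CPM). This is the deepest of the 18 libraries and the one with the most genes. D8 had the highest Cav1 (3057 CPM) and with it the highest alveolar type I sum (3076 CPM). A1 had the highest cholesterol synthesis sum (2189 CPM). C1, the cell nearest the boundary, had the highest Vim (8580 CPM, the next 2967 CPM). In B8 the 10 most abundant genes took 7.95% of counts.

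In score-low cells C7 had the highest kinesin and spindle sum (3661 CPM, the next 1482 CPM) and also 977 CPM of Cdk1. C3 stood apart in the sums of condensins and chromosome structure (16483 CPM) and of ribosomal proteins (94138 CPM), and had the fewest genes. C8 had the highest SR and hnRNP sum (13066 CPM). B5 had the highest Cdk6 (268 CPM). A12, the shallowest of the 18 libraries, had the highest Calr (659 CPM) and Psmd11 (684 CPM).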

How the results depend on the processing

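Over 162 results, 5610 values were computed under alternatives. The limit for a gene or list was 1 standard deviation between cells of a group, on the log2 CPM scale. For numbers of called genes it was 1.5-fold, and for genes per cell also 1 standard deviation. These limits are wide: with 1 cell left out, 20 of 2880 values lay beyond them. Yet 89.4% of called genes moved by more than 1.5-fold without the cell that moves them most. Of the 5610 values, 5443 moved by less than those limits and 151 moved further. The other 16 changed sign, a label given only to called genes and to lists with a median of at least 2-fold. A change of sign in any other result counts among the 5443 or the 151. With 1 cell left out, which the call rule already uses, called genes ranged from 1054 (without B4) to 1458 (without B5) higher and from 433 (without B5) to 614 (without B4) lower. With a minimum of 50 CPM, 383 genes were called higher and 211 lower, fewer genes being tested, and the median of the other G2/M genes was 1.62. Without letter A the counts were 1996 and 298 and that median 3.33, and Cacul1 at 0.32 and E2f4 at 2.24 changed sign. Without letter B they were 593 and 1083, and signs changed for Cdc23 at −0.10, Espl1 at −0.53, Orc3 at −2.12, Rfc1 at −1.18 and Hnrnpdl at −0.067. With the 29 cells split at the middle of the score, the G2/M median was 1.21, Cenpl −0.43, Mcm10 −0.020, Cdc7 −2.27, Fbn1 0.12, Herpud1 −0.036 and Tbp −0.013. With the score as a mean rank, Lypla1 was −0.99 and Rrs1 −0.31, and with stricter cell limits Cdc7 was −1.45. The cause of these shifts was not tested. Under the alternatives the other G2/M median lay between 1.21 and 3.33, and it was 0.00 within letter C. No paired analysis was possible because the labels pair no cells across groups.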
